A study of Mus musculus with 12 samples.

Results

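The whole course of the differentiation, from embryoid bodies (EB) to day 4 cells in which no Hox gene had been induced, was followed through accessible domains, the stretches of genome that the authors called open from ATAC-seq of mouse cells. Gained and lost domains were domains 150 bp or wider on chromosomes 1 to 19, X and Y that overlapped no domain of the other list by even 1 bp. By this rule 18866 of the 45088 domains of the day 4 list were gained (41.8%) and 15511 of the 41797 domains of the EB list were lost (37.1%). The EB samples came from the parental Ainv15(iCre) line and carry no label for day, retinoic acid or agonist. The day 4 samples, called no Dox, came from the Ainv15(iFlag.Hoxc6) line, which holds a doxycycline-inducible Flag-tagged Hoxc6 that was left off, and had received 1 µM retinoic acid (RA) and 0.5 µM of the Hedgehog agonist SAG. Each of these groups had 2 samples, and 1 list had been made from both samples together. The day 4 culture holds motor neurons beside interneurons, so fewer cells of a type and less accessibility per cell cannot be told apart.

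The study's 4 other groups, each also with 2 samples and 1 list, were used only to see where a gained or lost domain was present. Progenitors were Ainv15(iCre) cells at day 2 of RA and SAG. The iHoxc6, iHoxc9 and iHoxc10 groups were day 4 cells under the same RA and SAG whose Flag-tagged transgene had been switched on with 3 µg/mL doxycycline for 48 h. The 12 samples thus gave 6 lists of 56232 to 94875 domains, with no read depth and no signal height. Every comparison below therefore sets 1 list against 1 list without replicate error, and intervals are 95% Wilson intervals that cover the counting of domains or genes only. Stage cannot be told apart from cell line, from the settings of the domain calling or from the batch of deposit, since EB and no Dox differed in line and their lists differed in form: the closest neighbouring domains were 201 bp apart in EB and 37 bp apart in no Dox, and the no Dox list covered 29.8 Mb against 23.1 Mb.

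As background, an embryoid body is a floating aggregate of cells leaving the pluripotent state, which the transcription factors Oct4 (Pou5f1), Sox2 and Nanog maintain. RA gives the aggregates a neural and hindbrain to cervical character and opens the anterior parts of the Hox clusters, while Hedgehog signalling gives a ventral character and yields motor neuron progenitors that express Olig2. These leave the cell cycle and turn on Isl1, Mnx1 and the enzymes of acetylcholine synthesis. Promoters rich in CpG are open in most cell types, and the regulatory DNA that differs between cell types lies mostly away from promoters. The labels were checked against defining genes. The promoters of Nanog and Pou5f1 were covered in EB and uncovered in no Dox, and that of Olig2 was covered over 232 bp in EB and 1366 bp in no Dox. Most pluripotency promoters did not separate the groups in this way. Those of 11 of 18 naive and 14 of 22 core and primed genes were covered in both lists, and 4 of each closed. The motor neuron genes Mnx1, Isl1 and Chat were already covered in EB, over 965, 1057 and 999 bp, so that coverage of these promoters did not separate the groups. Markers of other cell types were mixed. Promoters were covered in both EB and no Dox for 5 of 12 blood, endothelial and fibroblast genes, 5 of 10 glial genes and 18 of 24 mesoderm and endoderm genes, and in neither for 4, 4 and 3. Among the latter Ptprc, Spi1, Gfap, Mog and Hnf4a had 0 bp in all 6 lists.

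A few sequences show what the gained and lost regions held. Both promoters were taken from RefSeq (GRCm38.p6, the 250 bases before the start) and belong to genes whose promoter was covered in EB and in no day 4 list. Distal stretches are the central 200 bases of a domain read from the same genome, chosen after the values were known as the widest domains near genes of the pluripotency lists that held an octamer, or near genes of the neural, RA and Hox lists that held the ONECUT or HOX-PBX letters. In the promoters and in the lost stretches, capitals mark matches on either strand to the octamer ATGCAAAT bound by Oct4 and other POU factors, to the SOX letters ACAATG, and to the KLF letters GGGNGTGG.
Nanog promoter, closed, chr6:122707239-122707488, plus strand: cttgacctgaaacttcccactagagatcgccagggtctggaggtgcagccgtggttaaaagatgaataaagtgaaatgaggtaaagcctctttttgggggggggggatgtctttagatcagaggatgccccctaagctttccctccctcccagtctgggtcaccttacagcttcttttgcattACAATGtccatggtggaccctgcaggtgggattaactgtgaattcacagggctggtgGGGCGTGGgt
Zfp42 promoter, closed, chr8:43307010-43307259, minus strand: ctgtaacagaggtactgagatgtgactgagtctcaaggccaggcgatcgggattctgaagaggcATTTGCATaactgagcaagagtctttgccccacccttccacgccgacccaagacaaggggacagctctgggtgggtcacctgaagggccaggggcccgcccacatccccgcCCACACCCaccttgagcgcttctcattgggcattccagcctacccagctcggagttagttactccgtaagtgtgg
L1td1, lost intron domain, chr4:98728093-98728292, plus strand: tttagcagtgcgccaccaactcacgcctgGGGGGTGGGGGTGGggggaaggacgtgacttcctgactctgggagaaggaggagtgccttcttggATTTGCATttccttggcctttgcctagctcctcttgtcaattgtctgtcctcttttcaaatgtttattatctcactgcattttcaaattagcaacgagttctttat
Tdh, lost domain, chr14:63500395-63500594, plus strand: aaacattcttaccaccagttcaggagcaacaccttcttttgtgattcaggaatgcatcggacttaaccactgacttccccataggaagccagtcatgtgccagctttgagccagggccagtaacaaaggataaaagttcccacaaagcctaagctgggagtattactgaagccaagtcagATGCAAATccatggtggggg
The Nanog stretch held 1 SOX and 1 KLF match and lay wholly within the lost EB domain, and the Zfp42 stretch held 1 octamer and 1 KLF match, with 241 of its 250 bases in EB domains. In the gained stretches that follow, capitals mark the ONECUT letters ATTGAT, the HOX-PBX letters TGATNNAT, the SOX letters, the E-boxes CAGCTG and CATCTG of proneural factors, and the RFX letters GTTGCCATG.
Olig2, gained intergenic domain, chr16:91192966-91193165, plus strand: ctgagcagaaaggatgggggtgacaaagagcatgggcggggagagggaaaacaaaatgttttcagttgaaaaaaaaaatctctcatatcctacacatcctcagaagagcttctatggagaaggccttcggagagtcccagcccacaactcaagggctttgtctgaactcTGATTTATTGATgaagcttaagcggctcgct
Nr2f1, gained domain, chr13:79255328-79255527, plus strand: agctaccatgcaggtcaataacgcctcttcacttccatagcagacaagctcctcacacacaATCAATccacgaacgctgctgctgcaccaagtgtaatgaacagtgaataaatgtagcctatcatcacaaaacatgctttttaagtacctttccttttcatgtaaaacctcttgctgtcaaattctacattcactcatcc
Rarb, gained intron domain, chr14:16733743-16733942, plus strand: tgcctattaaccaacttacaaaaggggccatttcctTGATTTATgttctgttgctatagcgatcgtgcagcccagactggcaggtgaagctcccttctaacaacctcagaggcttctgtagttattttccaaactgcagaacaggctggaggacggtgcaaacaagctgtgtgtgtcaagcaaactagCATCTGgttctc
In the Olig2 stretch the HOX-PBX and ONECUT matches overlapped. The Olig2 domain was 1464 bp wide and 32.4 kb from the start site, the Rarb domain was 1518 bp wide and 85.2 kb from the nearest start site, and each was also present in the progenitor list and in all 3 induced lists. The lost L1td1 domain, 728 bp wide in an intron 1.40 kb from the start site, was present in none of those 4 lists.

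Change was concentrated away from promoters. A promoter was the 1 kb on either side of any start site of a protein-coding gene, and all other domains were called distal. Of the gained domains 1003 touched a promoter (5.32%, 5.01 to 5.65), of the lost domains 1324 (8.54%, 8.11 to 8.99), and of the domains found in both lists 52.6% on the EB side and 50.8% on the no Dox side. The intervals of gained and lost domains did not overlap. The order turned when domains of every width were counted (7.52% of gained and 6.93% of lost) and when 50% of a domain had to be overlapped to count as shared (12.8% and 11.6%). Gained distal domains were also farther out, with a median of 56.7 kb to the nearest start site against 36.3 kb for lost ones and 23.2 kb for kept ones on the EB side, and 36.5% of gained against 28.8% of lost distal domains were more than 100 kb away. Introns held 48.4% of gained and 38.2% of lost domains. Exons outside promoters held 4.42% of gained and 8.07% of lost domains.

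Wide domains were mostly shared between the ends of the course, and narrow ones mostly were not. At 150 to 199 bp, 54.0% of no Dox domains were gained and 54.1% of EB domains were lost. Both shares were highest at 200 to 299 bp, at 67.4% and 59.4%, and at 1000 bp or more they were 5.19% and 1.88%. Among wide domains the gains outnumbered the losses, with 4022 gained and 1550 lost domains of 500 bp or more and 411 against 64 of 1000 bp or more. This order turned when domains of every width were counted, which gave 52414 gained and 56487 lost. The median width was 300 bp for gained, 260 bp for lost, and 469 bp (EB) and 615 bp (no Dox) for kept domains, so the no Dox list was the wider one among shared domains too. Gains outnumbered losses on most chromosomes, by up to 1.46 to 1 on chromosome 18, but not on chromosomes 11 (891 gained, 970 lost) and 19 (371 and 374), nor on Y (3 and 4).

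**Figure D1:**
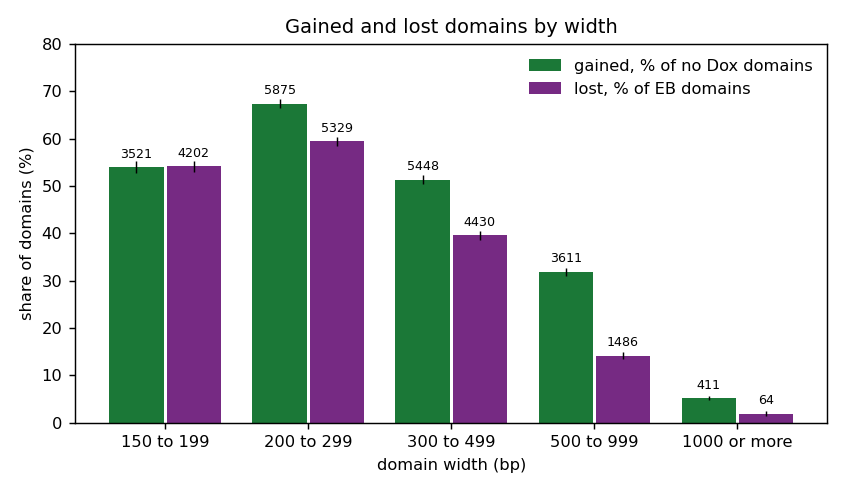
Share of domains that were gained (green, percent of no Dox domains) or lost (purple, percent of EB domains) by domain width in bp, with 95% Wilson intervals as bars and the number of gained or lost domains above each. Both shares lie above 50% at 150 to 199 bp, are highest at 200 to 299 bp (67.4% and 59.4%) and fall to 5.19% and 1.88% at 1000 bp or more.

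The lists that the rule did not use held many gained domains and few lost ones. Of gained domains 60.9% were already present in day 2 progenitors, and 76.3%, 49.1% and 57.1% were present with Hoxc6, Hoxc9 or Hoxc10 induced. Of lost domains 22.1% were present in progenitors and 12.6%, 6.82% and 4.91% in the induced lists. For comparison, 84.8% to 95.9% of kept domains were found in each of these lists, which differ in length. At least 1 induced list held 83.4% of the gained domains, and 98.5% of those 500 bp or wider, while 16.6% of gained domains were in no induced list. Of lost domains 10978 (70.8%) were in no other list at all. Lost promoter domains were found in progenitors more often than lost distal ones, at 40.8% (38.2 to 43.5) against 20.4%. Progenitors shared their cell line with EB and the iHoxc6 list shared its line with no Dox, and the part of line in these shares was not tested.

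**Figure D2:**
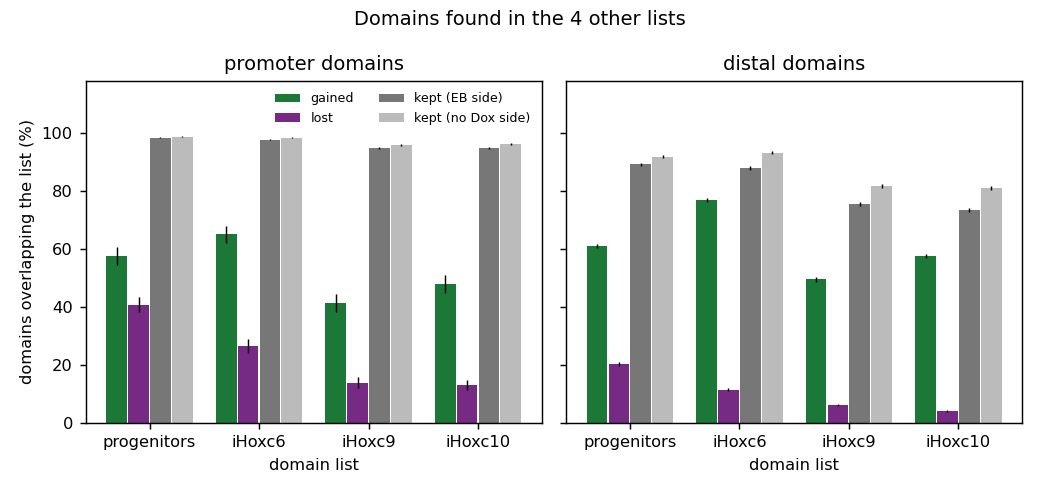
Share of promoter (left) and distal (right) domains of each class that overlapped a domain of the progenitor list or of an induced list, with 95% Wilson intervals as bars. Gained domains (green) were held by these lists in 41.4% of cases or more, while lost domains (purple) reached 40.8% only among promoters in progenitors, and kept domains (grey) stood above 73%.

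At the level of genes, few promoters went from closed to open, and more went the other way. Of 21938 protein-coding genes 178 had an opened promoter (0.811%), meaning a no Dox domain of 150 bp or more and no EB domain of any width in the window, and 644 had a closed one (2.94%) by the mirror rule. For 13931 genes both lists held a domain of any width, and 6361 genes had none in either list. The remaining 824 genes had only domains under 150 bp, in 1 of the lists. CpG content differed between these states. In the 500 bp around the start site, a CpG observed-to-expected ratio of 0.6 or more was found for 75.5% of genes open in both lists, 23.0% (19.9 to 26.4) of closed, 10.7% (6.94 to 16.1) of opened and 2.2% of genes open in neither. A domain lay on a start site itself for 439 closed promoters (68.2%) and for 90 opened ones (50.6%). Of closed promoters 47.7% still had some coverage in progenitors and 34.6% in iHoxc6 cells, whereas 38.8% had none in any of the 4 other lists. Of opened promoters 73.0% had coverage in progenitors and 10.1% had none in the 4 other lists.

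Changes in extent, counted here together with openings and closings, were more frequent than openings or closings alone. The covered part of the promoter at least doubled for 9.15% of genes and shrank to 50% or less for 6.09%, counting genes with 150 bp or more in the larger list. Genes with 0 bp in the smaller list were included, so these counts overlap those of opened and closed promoters. The median over all genes was 501 bp in EB and 648 bp in no Dox, so that a general widening went with these counts.

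Distal change at 150 bp or more was balanced in the number of genes and uneven in size. Each gained or lost distal domain was assigned to the protein-coding gene with the nearest start site. More gained than lost distal domains were counted for 4372 genes (19.9%), and more lost than gained for 4292 (19.6%). The balance depended on the width, with 5510 genes of net gain and 8122 of net loss when every domain was counted and 2205 and 817 from 500 bp. A net of 5 or more was found for 494 genes and a net of -5 or less for 87. Both kinds of change occurred at 3799 genes, and 311 genes had at least 5 domains of each kind. The share of genes with a net gain rose with the territory, the stretch of genome nearest to the gene's start sites, from 4.39% of the 5485 genes with the shortest territories to 44.8% of the 5485 with the longest, and the share with a net loss went from 8.93% to 27.7%, so counts of long genes and of genes in gene-poor regions were larger on both sides. Genes with an opened promoter had a net distal gain in 29.2% of cases and a net loss in 16.9%. For closed promoters these shares were 18.5% and 24.7%, and for promoters open in both lists 24.4% and 21.2%.

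Most genes of both pluripotency lists had a net loss of distal domains, and some of their promoters closed. In the list of 18 naive pluripotency genes 4 promoters closed and none opened, and 13 genes had a net distal loss against 2 with a net gain. The list of 22 core and primed pluripotency genes gave the same counts of closed promoters and of net losses, with 4 net gains. Over all genes 2.94% closed, 19.6% had a net loss and 19.9% a net gain. Among genes with territories of 46.2 to 109.5 kb, where the median territories of both lists fall, 25.6% had a net loss and 19.7% a net gain. The naive list had 33 gained and 48 lost distal domains, and the core list 43 and 48. The median net was -1 in both lists and 0 over all genes. The promoter of Nanog, a core homeodomain factor, had 623 bp in domains in EB and 0 bp in the 5 other lists, and that of Pou5f1, which encodes Oct4, had 744 bp and likewise 0 bp in the 5 others. The promoter of Fgf4, a growth factor gene bound by Oct4 and Sox2, had 717 bp in EB, 277 bp in progenitors and 0 bp in every day 4 list. Zfp42 (Rex1) had 423, 181 and 0 bp in the same order, and Tdgf1, a Nodal co-receptor, 230, 166 and 0 bp. These genes thus stood apart at EB, and a remainder at 3 of them was seen at day 2. The other closed promoters were Tdh, Lefty1 and L1td1. Utf1 was not counted as closed but went from 1090 bp in EB to 258 bp in no Dox with 3 lost and no gained distal domains.

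Some members of these lists did not follow. Sox2, which is also a factor of neural progenitors, kept its promoter (1761 bp in EB, 1939 bp in no Dox) and had 19 gained and 5 lost distal domains. The widest of the gained ones, 2243 bp wide and 90.4 kb from the Sox2 start site (chr3:34558909-34561151), was present in all 4 other lists. It lay in an intron of an annotated gene, not of Sox2 itself. Klf4 went from 1070 to 2094 bp of promoter with 2 gained and 4 lost distal domains. Sall4 and Lin28a kept their promoters as well, at 1682 and 2387 bp in EB and 2352 and 2326 bp in no Dox. Of the 56 lost domains of the naive list, promoters included, 50 were in no induced list, and of the 55 of the core list 47 were, shares near the 83.03% of all lost domains. Near Mycn, a Myc family gene, lay a lost intergenic domain of 1271 bp (chr12:12919990-12921260), the second widest lost distal domain, which no other list held.

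Other genes of the early embryo closed with them. Of 10 genes of the caudal and axial list 3 promoters closed, against 2.94% of all genes. That of T (brachyury), a factor of the primitive streak, had 1015 bp in EB, 97 bp in progenitors and 0 bp in all day 4 lists. Cdx1, a caudal homeobox gene, had 349, 60 and 0 bp, and Wnt3a 232, 39 and 0 bp. Cdx2 went from 861 bp in EB to 306 bp in progenitors and 44 bp in no Dox. Of 17 dorsal neural tube and crest genes, Pax3 (506 bp in EB), Wnt1 (163 bp) and Bmp4 (487 bp) closed, but Wnt1 had 394 bp in iHoxc6 cells. Among 17 forebrain and midbrain genes the eye field factor Rax closed, from 1040 bp to 0 bp, 1 closed gene of 17 being near the share over all genes. In that list 5 genes lost at least 50% of their promoter coverage, against 6.09% of all genes, and none doubled it. Distal counts of these 3 lists were nearly even, with 5 gained and 7 lost, 47 and 46, and 30 and 30 domains.

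The anterior Hox genes showed the opposite. Of the 15 genes of paralog groups 1 to 5, 11 at least doubled their promoter coverage, none lost 50% of it, and 11 had a net distal gain against 1 with a net loss, with 34 gained and 3 lost distal domains in all. Over all genes 9.15% doubled, 6.09% lost 50% and 19.9% had a net distal gain, and this list's median territory was short, at 10.5 kb. The promoters of 2 genes opened outright. That of Hoxb3 had 0 bp in EB, 955 bp in progenitors, 2094 bp in no Dox, and 1950, 272 and 1314 bp with Hoxc6, Hoxc9 and Hoxc10 induced. That of Hoxb2 had 0, 144, 963, 520, 146 and 399 bp in the same order. Hoxa2 went from 43 bp in EB to 1647 bp in progenitors and 1771 bp in no Dox, Hoxa4 from 69 to 1672 and 1673 bp, and Hoxc4 from 69 to 698 and 1191 bp. Hoxb1 did not follow, with 25 bp in EB, 31 bp in no Dox and 2 lost distal domains, and Hoxa3 had 0 bp of promoter in both lists. In the HoxB cluster 11 gained domains stood within 49.9 kb (chr11:96300502-96350397), 1 of 52 runs of 5 or more gained domains less than 10 kb apart. Only a run assigned to Pank3 held more. Start sites in the clusters lie close together, so neighbouring windows share domains.

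The 24 genes of paralog groups 6 to 13 gave no single direction. In HoxB the promoters of Hoxb6, Hoxb7, Hoxb8 and Hoxb9 went from 0, 29, 41 and 63 bp in EB to 677, 699, 530 and 665 bp in no Dox. In HoxC that of Hoxc9 closed, from 253 bp to 0 bp, Hoxc8 and Hoxc11 had under 150 bp in both, and Hoxc10 and Hoxc13 stayed at 200 and 199 bp and at 1438 and 1272 bp. In HoxD the promoters of Hoxd8, Hoxd9 and Hoxd10 went from 499, 615 and 416 bp to 862, 739 and 630 bp, and those of Hoxd11 and Hoxd13 from 883 and 913 bp to 88 and 63 bp. In HoxA Hoxa7 had 860 and 933 bp, Hoxa10 130 and 339 bp and Hoxa13 332 and 239 bp. In this list 5 genes at least doubled and 3 lost at least 50% of their promoter coverage. These are 20.8% and 12.5% of its genes, beside 9.15% and 6.09% over all genes. Distal domains were few, with 3 gained and 4 lost. The promoter of Hoxc6, the gene carried by the no Dox line as an inducible copy, had 0 bp in EB and in no Dox, and 339 and 266 bp with Hoxc6 and Hoxc9 induced. The TALE homeodomain cofactors of Hox proteins had 65 gained and 25 lost distal domains over 9 genes. Meis1 held 28 of the gained and 5 of the lost ones, and its promoter went from 493 bp in EB to 1609 bp in no Dox. Meis2 went from 368 to 2335 bp with 13 gained and 7 lost distal domains.

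**Figure D3:**
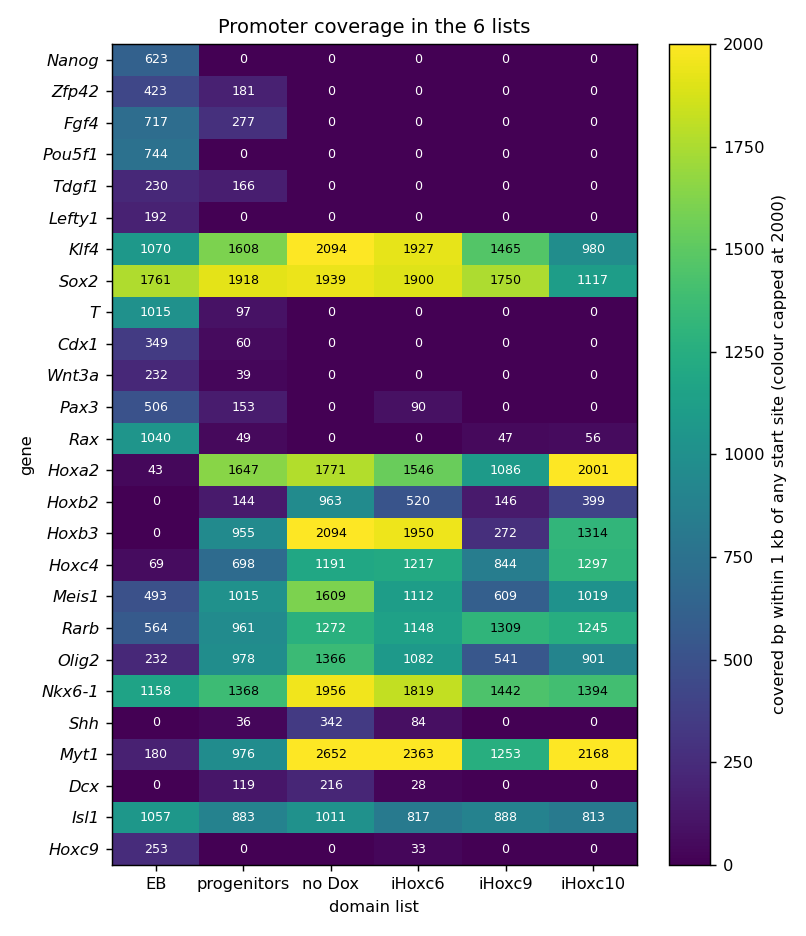
Base pairs covered by accessible domains within 1 kb of any start site of 26 genes (rows) in the 6 lists (columns), printed in each cell, with colour capped at 2000 bp. Pluripotency genes such as Nanog and Pou5f1 are covered only in EB or in EB and progenitors, and anterior Hox genes such as Hoxa2 and Hoxb3 are covered from progenitors on.

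Distal gains outnumbered losses in the lists of the 2 patterning signals. Of the 18 RA pathway genes 14 had a net distal gain and 1 a net loss, with 63 gained and 20 lost domains, beside 19.9% and 19.6% over all genes and 19.7% and 25.6% over the genes whose territories, of 46.2 to 109.5 kb, include the list's median of 92.7 kb. Rarb, a receptor gene that RA itself induces, had 13 gained and 2 lost and a promoter of 564 bp in EB and 1272 bp in no Dox. Cyp26b1, which encodes an RA-degrading enzyme, had 11 and 2, and a promoter of 795 and 2223 bp. The related Cyp26a1 had 55 bp in EB, 854 bp in progenitors, 510 bp in no Dox and 92 bp or less in the induced lists. The promoters of Crabp1, an RA-binding protein gene, and Stra8 were closed in no Dox but had 370 and 294 bp in iHoxc6 cells of the same day. The 14 Hedgehog pathway genes had 42 gained and 18 lost distal domains, 6 with a net gain and 4 with a net loss and a median net of 0. These are close to the shares over the genes with the longest territories (44.8% and 27.7%), where the list's median of 162.5 kb falls. The promoter of Shh, the ligand, had 0 bp in EB, 36 bp in progenitors, 342 bp in no Dox and 84, 0 and 0 bp in the induced lists. The promoter of the receptor and target gene Ptch1 went from 1563 to 4579 bp, and Gas1, a co-receptor gene, had 12 gained and no lost distal domains, which is 12 of the list's net of 24.

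Neural genes were mostly open at both ends and gained distal domains. None of the promoters of the 14 ventral progenitor and 15 motor neuron genes opened or closed. The ventral list had 82 gained and 24 lost distal domains, with 10 genes of net gain and 2 of net loss, and the motor neuron list had 80 and 30, with 11 and 1. The median net was 3 in each. Their median territories were long, at 134.8 and 132.2 kb, where 44.8% of all genes had a net gain and 27.7% a net loss. Olig2, the basic helix-loop-helix factor of motor neuron progenitors, had 232 bp of promoter in EB, 978 bp in progenitors and 1366 bp in no Dox, with 8 gained and no lost distal domains. Nkx6-1, a homeodomain factor of the ventral neural tube, had 13 gained and 1 lost, and Irx3 17 and 3. Foxa2, a floor plate factor that also marks endoderm, had 12 and 3. Among motor neuron genes Nr2f1 had 20 gained and 6 lost, Isl1 8 and 4, Lhx3 4 and 0, and Chat, the gene of choline acetyltransferase, 4 and 0. Promoters of the last 2 shrank meanwhile, Chat from 999 bp in EB to 570 bp in no Dox and Lhx3 from 459 to 231 bp. Of the 85 gained domains of the motor neuron list, promoters included, 43 were in all 3 induced lists and 8 in none, beside 37.9% and 16.6% of all gained domains.

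Many neuronal differentiation genes widened at the promoter, but so did ribosomal protein genes. Of 23 pan-neuronal genes 9 at least doubled their promoter coverage (39.1%) and none lost 50%, beside 9.15% and 6.09% over all genes. Coverage at least doubled for 36.1% of ribosomal protein genes, so a share of this size was not particular to neuronal genes. Myt1, a zinc finger factor of neurogenesis from the proneural list, had 180 bp in EB, 976 bp in progenitors, 2652 bp in no Dox and 2363, 1253 and 2168 bp in the induced lists. Elavl4, a neuronal RNA-binding protein gene, went from 1442 to 4723 bp, Map2 from 1315 to 3751 bp, and Gap43, a growth cone gene, from 39 to 710 bp. Dcx, the doublecortin gene of migrating neurons, opened, with 0 bp in EB and 216 bp in no Dox. Distal change went both ways here, with 121 gained and 81 lost domains. Rbfox1 had 19 gained and 4 lost and Nrxn3, a presynaptic adhesion gene, 22 and 21. The axon guidance list of 27 genes had 232 and 128, with 20 genes of net gain and 2 of net loss. Its genes had a median territory of 619 kb against 46.2 kb over all genes. Among all genes with the longest territories 44.8% had a net gain and 27.7% a net loss. The 24 proneural and Notch genes had 52 gained and 22 lost distal domains, the 7 Onecut and Ebf genes 31 and 13, the 19 spinal interneuron genes 49 and 27, and the 8 SoxB and SoxC genes 41 and 28. Genes of net gain and net loss numbered 10 and 4, 5 and 1, 10 and 5, and 4 and 3 in that order. Shares over all genes were 19.7% and 25.6% at the first list's median territory (77.4 kb). They were 44.8% and 27.7% at the longer medians of the other lists (154.6 to 340.7 kb). Among the genes of these lists the promoter of Sox14 closed (284 bp in EB), as did that of Neurod2 (324 bp).

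**Figure D4:**
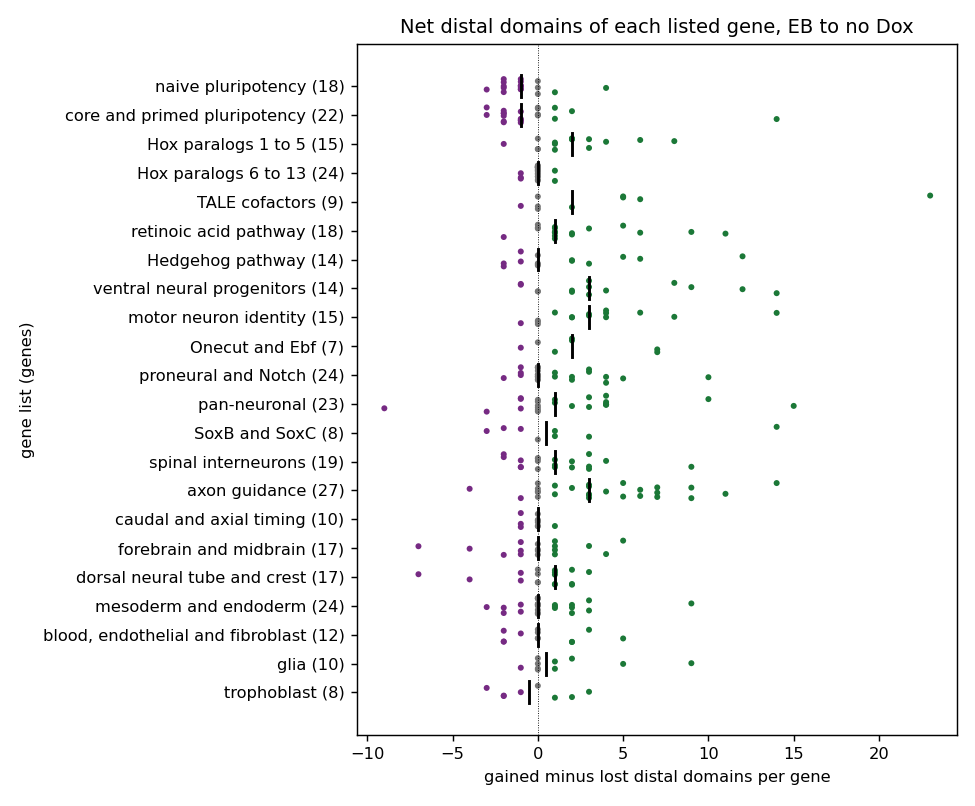
Gained minus lost distal domains of each gene (points: green above 0, purple below 0, grey at 0) in 22 gene lists, with the number of genes in brackets and the median as a black bar. Medians lie at -1 in both pluripotency lists and at 3 in the ventral progenitor, motor neuron and axon guidance lists, and the point farthest to the right is Meis1 at 23.

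Lists of other tissues and of housekeeping genes gave a mixed picture. The 24 mesoderm and endoderm genes had 40 gained and 25 lost distal domains, and the 12 blood, endothelial and fibroblast genes 33 and 28, with Col1a2 and Acta2 closed. The 10 glial genes had 34 and 17, of which the gliogenic factor genes Nfia and Nfib made up 10 and 1, and 15 and 10. The 8 trophoblast genes had 16 and 18, with Krt18 closed. Over all genes 2.94% of promoters closed. In these 4 lists genes of net gain and net loss numbered 9 and 5, 4 and 4, 5 and 1, and 3 and 4. Their median territories were 122.4 to 187.8 kb, where 44.8% of all genes had a net gain and 27.7% a net loss. Of 83 ribosomal protein genes 80 promoters were open in both lists and 1 closed, but 30 at least doubled their promoter coverage, 36.1% against 9.15% over all genes, and the median went from 530 to 1012 bp. These genes are active in all cells, so a doubling of coverage in the no Dox list was not limited to developmental genes.

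Ranked by net distal change over all genes, the largest gain was at Zfp608, a zinc finger gene with 44 gained and 8 lost domains, followed by Meis1. Pank3, a pantothenate kinase gene, had 24 and 3, Tenm4, a teneurin of neuronal adhesion, 32 and 12, Gse1 23 and 4, and Bach2, a transcription factor gene, 18 and 0. Frmd4a, Cdh11, Cdh2 (N-cadherin) and Ptprd completed the 10, each with a net of 17 or 18. Of the domains assigned to Pank3 12 stood within 53.4 kb (chr11:35491832-35545264), the run with the most gains. This run lay outside the Pank3 gene (chr11:35769484-35791285) and was assigned to it only by the nearest start site. The largest loss was at Cntn5, a contactin, with 9 gained and 23 lost, then Cdh9 with 4 and 17, Pcmtd1 with 2 and 15 and Tmem132c with 4 and 17. Cntnap5a, Csmd3, Scaf8, Zic4, Adam6a and Rbpms followed with nets of -11 to -10. Zic4, a zinc finger gene of the dorsal neural tube and cerebellum, had 2 gained and 13 lost. Most of these genes lie in long territories, up to 3252 kb for Csmd3. Runs of 5 or more lost domains numbered 7, and the one with the most domains, 9 in 16.3 kb at chr17:3006788-3023097, lay in the region assigned to Scaf8. The genes with the most change of both kinds were Zfp608, Tenm4, Nrxn3, Tenm3 and Zfp386.

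Opened promoters with the widest domains were those of Iqcn, Gm10643, Lmntd2, Tmem69, Tnnc1, Cpeb4, 1810010D01Rik, Dct, Lpl and Tmsb4x. Several windows were reached only by the edge of a broad domain: for Iqcn 512 bp of a 4647 bp domain lay in the window, and for 1810010D01Rik 22 bp of a 1243 bp domain. Tmsb4x, the thymosin beta 4 gene, had 0 bp in EB, 322 bp in progenitors, 1272 bp in no Dox and 269 to 305 bp in the induced lists, and Lpl, the lipoprotein lipase gene, had 0, 80 and 1000 bp and then 47 to 151 bp, so these promoters were widest in the no Dox list. Dct, a melanin synthesis gene, had 0, 605 and 1203 bp and 544 to 962 bp with induction, and its surroundings had 11 gained and 3 lost distal domains. The widest closed promoters were those of Vrtn, Marveld1, Rax, Zscan10, T, Lamb1, Il15, Noxa1, Ccdc68 and Lhcgr. Vrtn and Zscan10, a zinc finger gene of pluripotent cells, had 1869 and 1535 bp in EB and 0 bp in the 5 other lists. Marveld1, by contrast, had 1310 bp in EB, 691 bp in progenitors and 0 bp in no Dox, but 502 and 433 bp in iHoxc6 and iHoxc9 cells.

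Gained and lost distal domains differed in the short sequence motifs of their central 200 bp, searched on both strands. The ONECUT letters were found in 15.1% of gained domains (14.6 to 15.6), 4.57% of lost (4.24 to 4.92), 4.55% of kept domains on the EB side and 8.09% of all distal domains. The HOX-PBX letters were found in 18.4%, 5.68%, 5.57% and 9.96%. Both share the letters TGAT, and HOX-PBX without any ONECUT match was still found in 12.5% of gained against 4.46% of lost domains. The RFX letters were found in 1.93% of gained and 0.395% of lost domains, MEIS (TGACAG) in 20.9% and 13.5%, SOX in 20.3% and 13.3%, the homeodomain letters TAATTA in 8.90% and 4.32%, and the E-boxes CAGCTG and CATCTG in 20.9% and 24.1% of gained against 15.9% and 17.4% of lost domains. The octamer went the other way, with 1.88% (1.69 to 2.09) of gained, 4.05% (3.74 to 4.39) of lost and 2.66% of all. KLF was found in 5.27% of gained and 9.04% of lost domains. The letters TCAAGGTCA of Esrrb, another factor of naive pluripotency, were rare and more frequent in gained domains, at 0.560% (0.461 to 0.680) against 0.324% (0.243 to 0.432). CTCF (AGGGGGCGC), a factor of chromatin loops, was found in 0.106% of gained, 0.754% of lost and 2.45% of kept domains. The GLI letters GACCACCCA of Hedgehog effectors were equally rare, at 0.241% and 0.247%, and EBF (CCCNNGGGA) was at 4.24% and 4.58%, with overlapping intervals in both.

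Base composition moved with these classes, since the median GC content of the same windows was 46.5% in gained, 51.0% in lost and 53.0% in kept distal domains on the EB side. Within windows of 45 to 50% GC, ONECUT was found in 13.9% of gained and 5.55% of lost domains, HOX-PBX in 18.2% and 6.97%, RFX in 2.35% and 0.283%, and the octamer in 1.41% and 6.54%. For these 4 motifs the order of gained and lost was the same in each of 5 GC bands. EBF, near equal over all windows, was higher in gained domains in each of the 5 bands, with intervals apart only at 50 to 55% GC (6.05% and 4.57%). At 45 to 50% GC, KLF was at 4.70% and 5.21% and AP-1 (TGANTCA) at 7.44% and 8.61%, with overlapping intervals. KLF was lower in gained domains, with intervals apart, at 40 to 45% (2.00% and 3.35%) and at 50 to 55% (7.64% and 10.9%). From 55% GC it was near equal (14.7% and 14.8%). TAATTA was more frequent in gained domains from 45% GC up but not at 40 to 45% (10.84% and 11.03%). Among domains of 500 bp or more TAATTA was no more frequent in gained (9.22%) than in lost domains (9.71%), while ONECUT stood at 14.6% and 3.90%. Gained distal domains that were in all 3 induced lists differed by stage. Those already in progenitors (5195) held SOX in 24.5% and ONECUT in 14.1%, and those absent from progenitors (1646) held SOX in 13.6%, ONECUT in 19.9% and CAGCTG in 27.9% against 20.4%. Promoter domains showed the same order for ONECUT, with 6.78% of gained and 1.66% of lost, and fewer of the GC-rich letters of housekeeping promoters: ETS (CCGGAAGT) was in 0.0997% of gained, 1.06% of lost and 4.13% of kept promoter domains on the EB side. A match says only that the letters were present, not that a factor was bound.

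**Figure D5:**
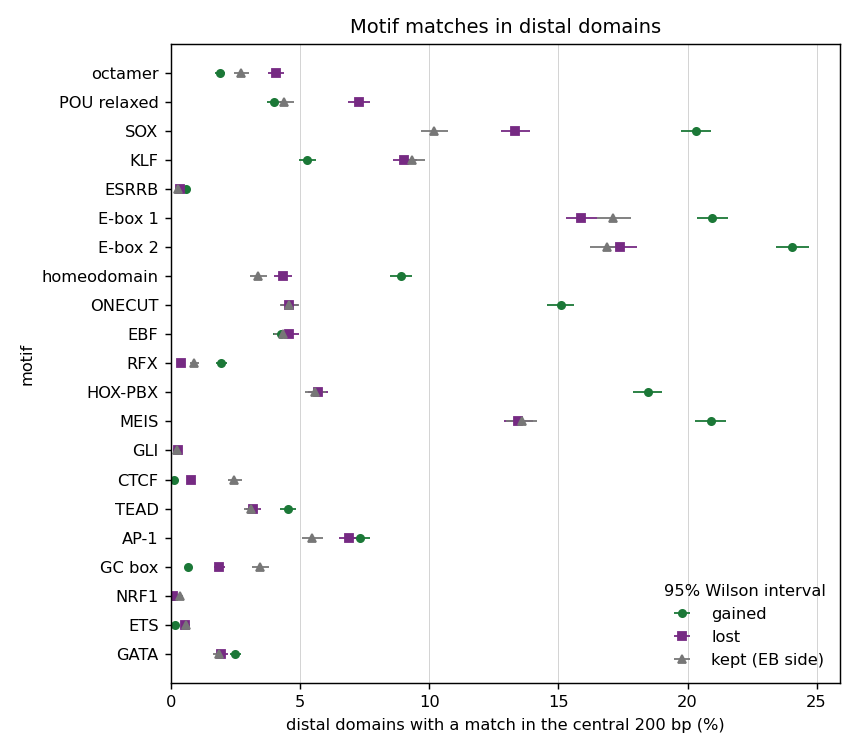
Share of gained (green circles), lost (purple squares) and kept (grey triangles, EB side) distal domains with a match to each of 21 motifs on either strand of the central 200 bp, with 95% Wilson intervals as bars (E-box 1 is CAGCTG, E-box 2 is CATCTG). ONECUT and HOX-PBX stand at 15.1% and 18.4% in gained domains and near 5% in the other classes, and the octamer is highest in lost domains.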

How the data were processed

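Accessible domains came from ATAC-seq of 12 samples in 6 groups of 2. Per the labels, the submitters' notes name Bowtie2 2.2.2, Picard 2.8.2 and the mm10 build, and the study's methods name DomainFinder, with settings not given in the sources used here. The deposited lists hold chromosome, start and end of each domain (units of position, no score), 1 list per group from both replicates together, so no test or replicate error was possible and read depth is unknown. The name of the no Dox list gives another day than its labels and a p threshold that the other names lack. The labels' day 4 was used. Starts were read as BED, with an uncertainty of 1 bp. Every domain ended within the GRCm38 chromosome lengths. Domains on other sequences were left out. Overlaps, promoters (GENCODE vM21, 1 kb on either side), nearest start sites, motif matches and Wilson intervals were computed with Python 3.11.15, NumPy 2.4.6, pysam 0.24.0 and samtools 1.23.1, after tests on simulated domains. Named genes were members of 23 gene lists, the 10 genes of largest net distal gain and loss, the 10 opened and 10 closed promoters with the widest domains, and 5 genes of high turnover. Named sites were the 5 widest gained and lost distal domains, of which those bearing on a named gene are given. Members, lists and motifs were chosen with earlier results of these data known. Some members of the lists are not reported here by name. Other widths, overlaps, promoter sizes and gene assignments were tried.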

Additional observations from a re-analysis of the deposited data

Results flagged for a closer look

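On the mitochondrial sequence, which the comparison leaves out, the EB list held a domain 16274 bp wide, as did all 4 of the other lists, while the no Dox list held none. It was looked at because it lies in data outside the comparison.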

How the results depend on the processing

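No paired analysis was possible because the 2 replicates of a group had been merged into 1 list, and for the same reason no replicate could be left out. Without a minimum width there were 52414 gained and 56487 lost domains, with 7.52% and 6.93% at promoters, 418 opened and 1228 closed promoters and 8122 genes of net distal loss. From 300 bp these were 9470 and 5980 domains, 4.995% and 10.4%, 112 and 364 promoters and 2285 genes. From 500 bp they were 4022 and 1550 domains, 4.55% and 12.3%, 57 and 129 promoters, and 2205 genes of net gain against 817 of net loss. Requiring 50% of a domain to be overlapped gave 12.8% and 11.6% at promoters, with 439 opened and 1074 closed, so the order of these shares turned there and without a minimum width. Counting domains within 200 bp as shared gave 4.75% and 7.96%, requiring support by the induced lists 4.65% and 6.83% with 363 closed promoters, a promoter of 500 bp 3.14% and 6.75%, and one of 5 kb 14.9% and 18.98%. Taking the same number of first rows of both lists, chosen after seeing the data, gave 4.69% of gained domains at promoters, 3774 genes of net gain and 4345 of net loss. More genes had a net loss than a net gain also without a minimum width (5510 of net gain), within 100 kb of a start site (3994 and 4304) and with start sites of any gene (2960 and 3051). The summed net distal domains of some lists changed sign. Caudal and axial timing (-2) became 4 without a minimum width, 1 from 300 bp, 2 from 500 bp, 1 with support by induced lists and 2 with promoters of 5 kb. Core and primed pluripotency (-5) became 5 from 500 bp and 5 with promoters of 5 kb. Paralogs 6 to 13 of Hox (-1) became 1 with promoters of 500 bp and of 5 kb. Dorsal neural tube and crest (1) became -26 without a minimum width and -2 in the first rows, and mesoderm and endoderm (15) became -27 without a minimum width. Blood, endothelial and fibroblast (5) became -9 within 100 kb and -5 with start sites of any gene, where SoxB and SoxC (13) became -2 and trophoblast (-2) became 1. Ribosomal proteins (-12) became 3 from 500 bp. The causes were not tested. Of the other list sums, 91 moved by more than the limit set for them and 191 did not. With start sites of any gene the sum of ventral progenitors fell from 58 to 11 and that of motor neuron identity from 50 to 14. TALE cofactors fell from 40 to 9 and Hox paralogs 1 to 5 from 31 to 13. The sum over all genes fell from 3676 to 893 there, and that of pan-neuronal genes went from 40 to 29, within its limit. Within 100 kb axon guidance fell from 104 to 47.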
